A study of Papilio machaon with 10 samples.

Results

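The female adult of the swallowtail butterfly Papilio machaon was compared with the male adult. These are 2 of the 10 libraries of a developmental series, and 13242 of the 15285 listed genes were compared, those with a mean RPKM of at least 1 over both adults. RPKM scales the reads of a gene by its length and by the size of the library. Poly-A RNA of the whole body was sequenced from the egg, from each larval instar (L1 to L5), and from a female and a male of pupa and adult, with 1 library of each. Each adult library, each pupal library and each of L3, L4 and L5 came from 1 individual, while the egg and L1 libraries pooled 10 individuals each and the L2 library pooled 5. No library carries a named allele or treatment, the larvae fed on fennel or carrot, and the labels give neither the age nor the mating state of the adults and no sex for egg or larvae.

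In butterflies the female is the heterogametic sex, with a Z and a W chromosome, and the male carries a pair of Z chromosomes. In insects the ovary fills the egg with maternal RNA and yolk, which early embryos use, while testis and male accessory glands transcribe many genes that other tissues use little. A whole body therefore holds tissues that the other sex lacks, and in such a bulk library fewer cells of a type and less RNA per cell cannot be told apart. The genes are listed by locus tag only, and 0 of the tags were found in the RefSeq gene table of the species, so that no gene is named here, no marker of ovary, testis or gland could be read, and no gene was placed on Z or W.

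The adults were similar to the other libraries in depth. The reads worked out from the steps of the RPKM values summed to 27194815 in the female adult, against 23596572 in the male adult, and lay between 23239554 and 35985078 in the 8 other libraries. At 1 RPKM or more the female adult had 11939 genes and the male adult 13282, and 989 genes were listed at 0 in the female adult, against 362 in the male adult. A gene listed at 0 had 0 reads, but for counting error only its expected number of reads could still be up to 3. For the median gene 3 reads were 0.142 RPKM in the female adult, against 0.152 in the male adult. L2 stood apart from the other larvae: across the genes compared its Spearman's rho with each of the 4 others lay from 0.79 to 0.83, against 0.86 to 0.92 among those 4, and the male pupa correlated with L2 at 0.75 and with the 4 other instars at 0.62 to 0.66. With 1 individual per sex there was no spread between replicates, so no difference below carries a test, and a difference between these 2 butterflies cannot be told apart from a difference between the sexes.

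More genes were higher in the male adult than in the female adult. At a difference of at least 2 in log2(RPKM + 1), which is 4-fold on that scale, 378 genes (2.85% of those compared) were higher in the female adult, against 1240 (9.36%) in the male adult. These sets are called female-higher and male-higher genes, and they are defined by these values, so their adult levels are a description. A further 8862 genes (66.9%) were under 2-fold apart, and the median difference over all genes compared was -0.12 (female adult minus male adult), with 25% of genes below -0.82 and 25% above 0.48. Across the 13242 genes the adults correlated with Spearman's rho of 0.73, where genes are not independent replicates. The sets end within a dense part of the distribution: 40 genes lay from 2 to 2.1 and 60 from 1.9 to 2 on the female side, against 95 and 78 at the same distances on the male side.

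**Figure D1:**
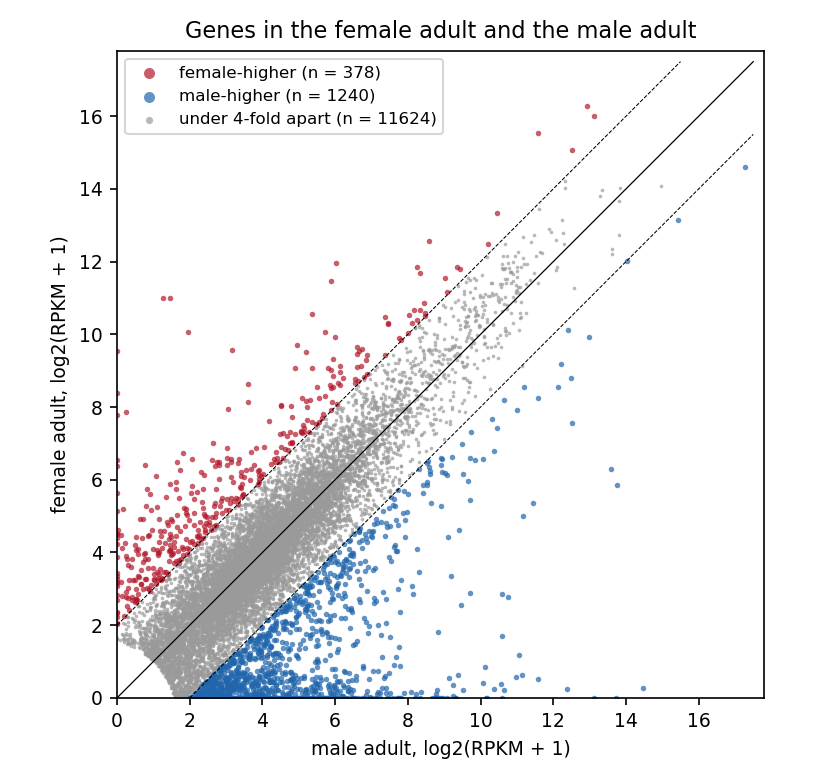
Each point is 1 of the 13242 genes compared, with log2(RPKM + 1) in the female adult on the vertical axis and in the male adult on the horizontal axis. The dashed lines mark 4-fold, and the 1240 male-higher genes extend further from the diagonal than the 378 female-higher genes, many of them along the lower edge at or near 0 in the female adult.

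The excess of male-higher genes was greater at larger differences up to 32-fold and was not greater beyond. At 2-fold there were 1579 genes higher in the female adult, against 2801 in the male adult, a ratio of 1.77 male-higher genes to each female-higher gene. At 16-fold the counts were 48 and 346, a ratio of 7.21, and at 32-fold 19 and 208, a ratio of 10.9. At 64-fold they were 10 and 109, again a ratio of 10.9, and at 256-fold 5 and 40, a ratio of 8, which rests on few genes. The largest difference was 9.74 on the female side and -14.21 on the male side.

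**Figure D2:**
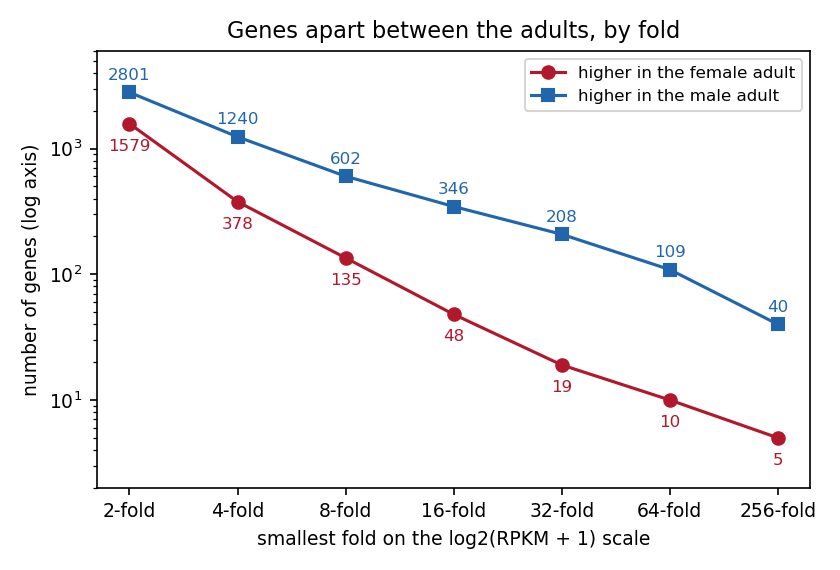
The number of genes (log axis) is plotted against the smallest fold on the log2(RPKM + 1) scale, with circles for genes higher in the female adult, against squares for genes higher in the male adult. The lines move apart up to 32-fold, with 378 and 1240 genes at 4-fold and 19 and 208 at 32-fold, and lie closer again at 256-fold, with 5 and 40.

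The sets also differed in how much of the gene remained in the other sex. The female-higher genes had a median of 41.5 RPKM in the female adult, against 3.98 in the male adult. In the male adult 285 of the 378 (75.4%) were still at 1 RPKM or more, 126 were at 10 RPKM or more and 25 (6.61%) were listed at 0. The male-higher genes had a median of 0.403 RPKM in the female adult, against 19.7 in the male adult. In the female adult 455 of the 1240 (36.7%) were at 1 RPKM or more, and 291 (23.5%) were listed at 0. Female-higher genes were thus mostly graded between the sexes, and most male-higher genes were under 1 RPKM in the female. These shares were not matched for adult level. The higher adult was under 10 RPKM for 56 female-higher and 382 male-higher genes, and a low gene counts as 4-fold apart only if the other adult is near 0. How much of the contrast follows from level was not tested. The female-higher genes held 24.6% of the summed RPKM of the genes compared in the female adult, against 3.14% in the male adult, and the male-higher genes held 3.52% in the female adult, against 34.8% in the male adult. For 329 of the 378 and 1147 of the 1240 genes the 95% interval of the ratio of reads, for counting error only, lay wholly past 4-fold.

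The egg and larval libraries were not used to choose the genes. In the egg, 343 of the 378 female-higher genes (90.7%) were at 1 RPKM or more, close to the 88.9% of all genes compared. The male-higher genes were expressed there less often, 745 of 1240 (60.1%). The medians in the egg were 21.4 RPKM for the female-higher genes, 2.68 for the male-higher genes and 11.0 for all genes compared. These medians were not matched for adult level. Where the higher adult had from 10 to 100 RPKM, the egg median was 16.1 RPKM for female-higher genes and 17.0 for all genes compared. At 100 RPKM or more it was 80.5, against 122, and under 10 RPKM it was 4.17, against 3.67. In at least 1 larval instar, 358 female-higher genes (94.7%) and 948 male-higher genes (76.5%) reached 1 RPKM, against 95.2% of all genes compared. Without L2 these shares were 93.9%, 70.9% and 94.1%. In all 5 instars it was 256 (67.7%) and 506 (40.8%), against 75.2%. Egg, L1 and L2 pool individuals whose sex is not given and the sex of the single L3, L4 and L5 larvae is not given either, so these values describe the stage only.

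The instars differed from one another by less than the sets did. The share of female-higher genes at 1 RPKM or more was highest in L4 at 87.6%, followed by L3 (86.0%), L1 (85.7%), L2 (80.7%) and L5 (77.0%). The share of male-higher genes was also highest in L4 at 63.8%, followed by L2 (60.6%), L3 (56.5%), L1 (53.9%) and L5 (51.5%). Over all genes compared it was 86.2% in L1, 88.0% and 87.9% in L2 and L3, 89.4% in L4 and 80.7% in L5. L5 was the lowest instar in all 3 lists, and L2 was the instar in which the share of female-higher genes lay furthest below that of all genes compared. The median level of the female-higher genes from L1 to L5 was 14.9, 11.5, 17.6, 18.6 and 9.43 RPKM, and that of the male-higher genes was 1.43, 2.10, 2.18, 2.84 and 1.19 RPKM. The median of the female-higher genes was therefore above that of all genes compared in egg, L1, L3, L4 and L5, and slightly below it in L2, where all genes compared had 11.6 RPKM. These medians too were not matched for adult level.

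**Figure D3:**
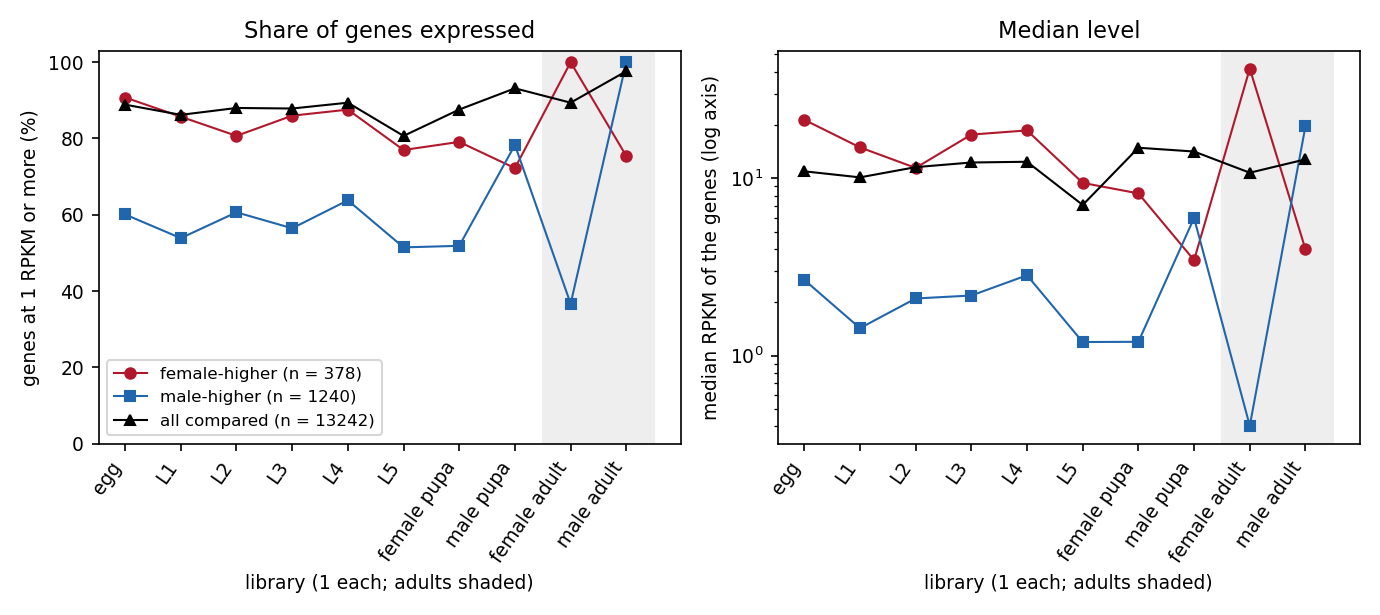
The left panel gives the share of genes at 1 RPKM or more and the right panel the median RPKM (log axis) in each of the 10 libraries, for female-higher genes (circles), male-higher genes (squares) and all genes compared (triangles). In the egg 90.7% of the female-higher genes and 60.1% of the male-higher genes were expressed, and in the shaded adult libraries the sets are apart by construction.

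Genes with neither egg nor larval expression were mostly male-higher. Under 1 RPKM in the egg and all 5 instars were 14 of the 378 female-higher genes (3.70%), 262 of the 1240 male-higher genes (21.1%) and 502 of all genes compared (3.79%). Without L2 it was 16, 321 and 612 genes. Of the 262 male-higher genes, 118 reached 1 RPKM in the male pupa, 113 of them without reaching it in the female pupa, and 140 reached it in neither pupa. Of all 502 such genes, which include these 262, 270 reached 1 RPKM in the male pupa. In 219 of them the female pupa was under it, and 217 of the 502 reached it in neither pupa. The male-higher genes thus did not reach it in the male pupa more often than all such genes. Of the 14 female-higher genes, 2 reached it in the female pupa and 9 in neither pupa. The male pupa had 4 of the 14 at this level, 3 of them under it in the female pupa. A further 233 male-higher genes (18.8%) were expressed in a larva and not in the egg, against 21 female-higher genes (5.56%) and 7.34% of all genes compared.

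Male-higher genes with a larger sex difference were less often expressed in the egg. Among male-higher genes 4-fold to 8-fold apart, 70.8% were at 1 RPKM or more in the egg (n = 638). The share was 65.2% from 8-fold to 16-fold (n = 256), 42.2% from 16-fold to 64-fold (n = 237) and 23.9% at 64-fold or more (n = 109). Their median egg level was 5.03 RPKM in the first of these bands and 0.168 RPKM in the last. The shares of female-higher genes in the egg were 91.4% (n = 243), 93.1% (n = 87), 81.6% (n = 38) and 90.0% (n = 10) in the same bands, without such a trend. In their last band, of only 10 genes, the share was also 90.0% in L1, L2 and L3. There it was 80.0% in L4 and 60.0% in L5, from 87.7% and 78.2% in the first band. The sets were also apart among abundant genes. Among genes whose higher adult value was 100 RPKM or more, 108 of 119 female-higher genes (90.8%) and 121 of 207 male-higher genes (58.5%) were expressed in the egg, against 93.1% of the 1575 genes compared at that level.

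The egg and larvae were also compared gene by gene with the adults. In the egg, 190 of the 378 female-higher genes lay between the female adult and the male adult, 96 above both and 92 below both. For the male-higher genes, 747 of 1240 lay between the adults in the egg, 241 above both and 252 below both. In the instars from 148 (L5) to 171 (L4) of the 378 female-higher genes lay between the adults, fewer than in the egg, and from 106 (L4) to 145 (L2) lay below both. Of the male-higher genes from 650 (L1) to 776 (L4) lay between the adults in the instars, and from 218 (L4) to 373 (L5) below both. The median difference on the log2(RPKM + 1) scale between egg and the higher adult was -1.22 for female-higher genes and -2.17 for male-higher genes. The female adult was the highest of the 10 libraries for 175 female-higher genes (46.3%), and the male adult for 643 male-higher genes (51.9%). Over all genes compared these shares were 12.4% and 13.7%, and the sets were chosen on these adults. The female pupa was highest for 34 female-higher genes (8.99%), below its 26.5% of all genes compared. The male pupa was highest for 196 male-higher genes (15.8%), close to its 14.4% of all genes compared. Of the female-higher genes expressed in egg or larvae, the egg was the highest of these 6 libraries for 94 of 364 (25.8%), and L4 for 85. Of the male-higher genes so expressed, L4 was highest for 266 of 978 (27.2%), L2 for 217 (22.2%) and the egg for 180 (18.4%). Of the 12740 genes compared that were so expressed, the egg was the highest of the 6 for 20.5%, L2 for 18.2% and L4 for 27.5%.

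The pupae are other individuals than the adults that chose the genes. Of the 378 female-higher genes, 73 (19.3%) were at least 4-fold higher in the female pupa and 29 (7.67%) in the male pupa. Over all genes compared these shares were 3.01% and 7.48%. Of the 1240 male-higher genes, 45 (3.63%) were at least 4-fold higher in the female pupa and 342 (27.6%) in the male pupa. The median pupal difference, female pupa minus male pupa, was 0.52 for the female-higher genes, -0.64 for the male-higher genes and 0.10 for all genes compared. In the pupae 189 of the female-higher genes (50%) and 620 of the male-higher genes (50%) were under 2-fold apart, against 70.4% of all genes compared. In the female-higher bands the share 4-fold higher in the female pupa was 15.2%, 21.8%, 28.9% and 60.0% from the smallest to the largest adult difference, the last of only 10 genes. In the male-higher bands the share 4-fold higher in the male pupa was 27.0%, 30.9%, 28.3% and 22.0%.

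**Figure D4:**
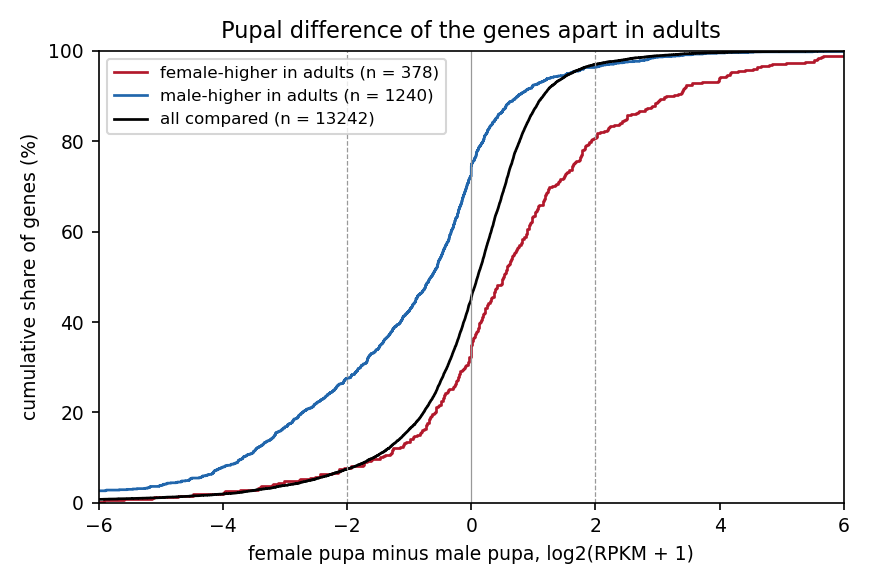
The cumulative share of genes is plotted against female pupa minus male pupa on the log2(RPKM + 1) scale for female-higher genes, male-higher genes and all genes compared, with dashed lines at 4-fold. The male-higher genes lie to the left of all genes compared (median -0.64 against 0.10) and the female-higher genes to the right (median 0.52).

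A total of 4 genes are given in full, in each direction the gene with the largest difference among those with egg or larval expression and among those without. RR48_00286 had 2055 RPKM (12300 reads) in the female adult, against 1.41 RPKM (8 reads) in the male adult, a difference of 9.74, the largest on the female side. The ratio of female to male RPKM was 1461, with a 95% counting interval of 741 to 3385. The egg had 351 RPKM, and L1 to L5 had 277, 140, 239, 383 and 207 RPKM. The pupae had 213 RPKM in the female, against 61.0 in the male. The transcript was thus abundant in every library but the male adult, which stood alone at the bottom.

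RR48_05966 was a female-higher gene without egg or larval expression. It had 2035 RPKM in the female adult, against 1.73 in the male adult, a difference of 9.54 and a ratio of 1176 (95% counting interval 1010 to 1377). In the pupae it had 73.2 RPKM in the female and 6.40 in the male. In the egg it had 0.103 RPKM, in L4 0.395, and in the other instars from 0 to 0.0778, so that this gene was detected above 1 RPKM in pupae and adults only, and more in the female of each pair.

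RR48_12386 had the largest difference on the male side, -14.21. It had 0.208 RPKM (1 read) in the female adult, against 22864 RPKM (104332 reads) in the male adult, where it was the fourth most abundant gene compared. The ratio of female to male RPKM was 9.11e-06, with a 95% counting interval of 2.31e-07 to 5.08e-05. It was listed at 0 in the female pupa and had 45.6 RPKM in the male pupa. Egg, L1, L3 and L4 were listed at 0, L2 had 0.490 RPKM (3 reads) and L5 had 1.21 RPKM (5 reads), so that its place among the genes with larval expression rests on 5 reads.

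RR48_09407 was under 1 RPKM in egg and larvae. It had 0.178 RPKM (10 reads) in the female adult, against 5271 RPKM (280835 reads) in the male adult, a difference of -12.13 and a ratio of female to male RPKM of 3.38e-05 (95% counting interval 1.62e-05 to 6.22e-05). It had 0.144 RPKM in the female pupa and 12.1 in the male pupa. The egg had 0.248 RPKM, L1 0.121, L2 0.336, L3 0.0518, L4 0.185 and L5 0.703. In both male-higher genes the male pupa was the second highest library and lay far below the male adult.

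**Figure D5:**
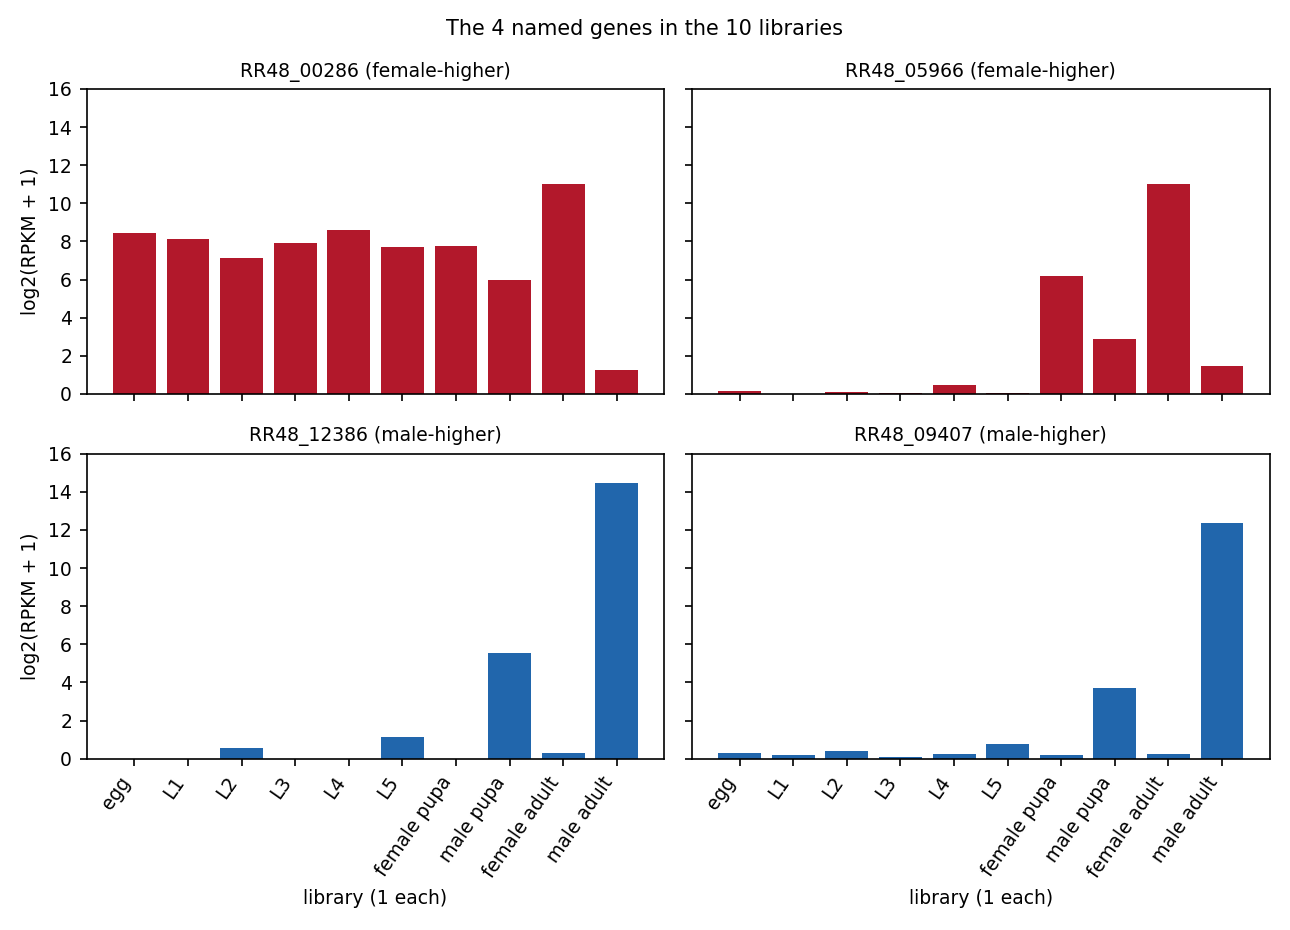
Bars give log2(RPKM + 1), from 0, of the 4 genes in each of the 10 libraries. RR48_00286 was at 61.0 RPKM or more in all libraries but the male adult, RR48_05966 was confined above 1 RPKM to pupae and adults, and the male-higher genes RR48_12386 and RR48_09407 were high in the male adult and at 45.6 and 12.1 RPKM in the male pupa.

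The 10 largest differences in each direction showed the same contrast in early expression. The 10 female-higher genes had from 82.5 to 2055 RPKM in the female adult, against from 0 to 7.87 in the male adult, and 9 of them were at 1 RPKM or more in the egg, with a median of 54.7 RPKM. The 10 male-higher genes had from 0 to 0.538 RPKM in the female adult, against from 1499 to 22864 in the male adult, and 1 of them reached 1 RPKM in the egg, where the highest had 2.85 RPKM. All 10 male-higher genes were between 2.44 and 45.6 RPKM in the male pupa. In the female pupa 9 of them were under 1 RPKM.

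Genes listed at 0 in the other adult were followed through development. Of the 25 female-higher genes at 0 in the male adult, all 25 reached 1 RPKM in egg or a larva, and 22 did so in the egg. Of all 13242 genes compared, 12740 reached it in egg or a larva and 88.9% in the egg, so these counts were near those of all genes. Of these 25, 12 reached 1 RPKM in the female pupa and were at 0 in the male pupa too. Those 12 had a median of 20.8 RPKM in the female adult, 10.1 in the female pupa and 8.66 in the egg. Their adult and pupal values were used to choose them. From L1 to L5 their medians were 15.9, 6.65, 11.3, 8.02 and 4.29 RPKM, and from 0 to 2 of the 12 were listed at 0 in any egg or larval library. Of the 291 male-higher genes at 0 in the female adult, 144 reached 1 RPKM in egg or a larva and 23 were at 0 in all 6 of these libraries. Of the 291, 65 were also at 0 in the female pupa while the male pupa had at least 1 RPKM. These 65 had a median of 6.97 RPKM in the male adult, against 6.80 in the male pupa, where 180 of the 291 reached 1 RPKM. Adult and pupal values were used to choose the 65, so these medians are a description. Of all genes compared, 373 were at 0 in the female pupa and 109 in the male pupa. In L2, 17 of the 65 reached 1 RPKM and 6 were listed at 0, whereas the egg listed 32 at 0, L1 53, L3 35, L4 22 and L5 45. The counts at 0 were not matched for depth. Of these 6 libraries L2 had the most reads, 35985078, and L5 the fewest, 23239554.

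Genes of the same set often carried consecutive locus tags. The next tag belonged to the same set for 35 of 316 female-higher genes whose next tag was compared (11.1%), where 2.85% of all genes compared were female-higher. For male-higher genes it was 292 of 1042 (28.0%), where 9.36% of all genes were male-higher. The next tag belonged to the opposite set for 9.18% of the female-higher genes and 2.69% of the male-higher genes, close to those overall shares. The female-higher genes formed 5 runs of 3 consecutive tags and none longer. The male-higher genes formed 59 runs of 3 or more, holding 204 genes (16.5% of the set), and the longest 2 runs had 7 tags. Whether tag order follows the genome, and how much near-identical copies shared reads, was not tested.

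These 2 runs differed in their early expression. In the first, all 7 genes were expressed in the male pupa and the male adult. The median over the 7 genes was 0.200 RPKM in the female adult, against 63.2 in the male adult, and 0.161 in the female pupa and 37.4 in the male pupa. In L2, 6 of the 7 reached 1 RPKM, with a median of 5.28, and 0 of 7 did so in egg, L1, L3, L4 or L5. In the other run the medians were 4.11 RPKM in the female adult, against 218 in the male adult, 5 of the 7 genes were expressed in the egg, and the highest member reached 34598 RPKM in L5. Neighbouring male-higher genes thus included a run expressed in the males and L2 as well as a run with a gene more abundant in a larva than in either adult.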

How the data were processed

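RNA of 10 libraries was compared as deposited. The authors sequenced poly-A RNA with paired-end Illumina reads, mapped it to their own assembly and deposited RPKM values for 15285 genes. The submitters' processing notes list TopHat 1.0.12 and 1.4.1 without their roles. The counting tool and annotation are not given in the sources used here. All columns were matched to libraries by name, leaving 0 without a library. RPKM columns do not share a common total, so a library-wide shift between the adults would move their differences, by amounts that vary with a gene's level on the scale used.

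Differences were taken as log2(RPKM + 1), female adult minus male adult, for genes averaging 1 RPKM or more over both, and genes at least 4-fold apart were counted, without a test. This scale understates the change of low genes. A gene was called expressed at 1 RPKM or more. Reads were worked out as the smallest whole numbers that fit a gene's values in all libraries (within 0.001, for all 15285 genes), and can be too small by a whole factor for genes with few reads. They served for depth and exact 95% counting intervals only. The scripts were tested on simulated data. Gene sets, rules and lists were chosen with earlier results of these data known. In each direction the named genes are those with the largest difference with and without 1 RPKM in egg or larvae. At most 2 locus tags per direction are given, because 0 tags matched the reference table. For the same reason lists of ovary, testis, accessory gland, sex determination and antenna markers were not run. Alternatives were a pseudocount of 0.1, scaling to the 75th percentile or to the same total, other filters, folds and expression thresholds, counting intervals, and leaving out each instar. Python 3.11.15 with numpy 2.4.6, pandas 2.3.3, scipy 1.17.1 and matplotlib 3.10.9 was used.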

Additional observations from a re-analysis of the deposited data

How the results depend on the processing

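No paired analysis was possible because each sex and stage had 1 library. The excess of male-higher genes was present under all 9 alternatives to the counts, with 1.77 (2-fold) to 7.21 (16-fold) male-higher genes to each female-higher gene. The 9 alternatives were a pseudocount of 0.1, either scaling, 3 filters, 2 other folds and counting intervals past 4-fold. Of the 3 filters, 2 (none, and 1 RPKM in either adult) could not change the counts of 378 and 1240. Any gene 4-fold apart on this scale already passes the main filter. No scaling moved the median difference by more than 0.1: scaling to the same total moved it by -0.09 and 75th percentile scaling by 0.05. The 4 named genes kept their direction and stayed past 4-fold under the pseudocount of 0.1 and both scalings. The size of the differences they were chosen for fixed this in advance.

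At 2-fold the counts were 1579 and 2801 and at 16-fold 48 and 346 (female-higher, then male-higher genes). The share of female-higher genes expressed in the egg was 86.8% with a pseudocount of 0.1, 83.3% at 16-fold, 93.9% at 0.5 RPKM and 72.8% at 5 RPKM (all genes compared 92.8% and 68.3%). That of male-higher genes was 63.5% with a mean RPKM of at least 5, 73.0% at 2-fold, 36.4% at 16-fold, 56.7% with counting intervals past 4-fold, 67.7% at 0.5 RPKM and 41.3% at 5 RPKM. With a mean RPKM of at least 5, all genes compared gave 94.3% in the egg. In larvae the female-higher share was 96.6% at 2-fold, 89.6% at 16-fold and 82.8% at 5 RPKM. The male-higher share there was 86.5%, 59.0% and 54.3%, and 85.0% at 0.5 RPKM. All genes compared gave 95.2% at both folds, 80.8% at 5 RPKM and 97.4% at 0.5 RPKM in larvae. With each instar left out the larval share was 92.6% to 94.4% for female-higher genes and 70.9% (without L2) to 75.5% for male-higher genes. The share of female-higher genes apart in the same direction in the pupa was 26.7% with a pseudocount of 0.1, 23.9% with scaling to the same total, 26.5% with 2-fold in both stages and 25% with 16-fold in both, where all genes compared gave 4.30%, 3.85%, 13.4% and 0.400% under the same settings. That of male-higher genes was 40.6% with a pseudocount of 0.1, 23.7% with a mean RPKM of at least 5, and 35.5% and 13.3% with 2-fold and 16-fold in both stages, where all genes compared gave 10.9%, 5.57%, 16.2% and 1.94%. At 2-fold the next tag was in the same set for 19.5% of female-higher and 34.9% of male-higher genes, where 11.9% and 21.2% of all genes compared were in these sets, so that the shares were closer to those overall than at 4-fold. The male-higher share stayed below the female-higher share in egg and larvae in every one of these settings. The cause of these shifts was not tested.

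With 1 library a sex, depth limits low genes only, and the spread between individuals is unknown.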

Other observations

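The most abundant transcripts of the adults were partly the same. Of the 10 genes with the highest RPKM in each adult, 3 were in both lists. Among the 10 of the female adult, 4 were female-higher and 1 was male-higher, and among the 10 of the male adult 0 were female-higher and 6 were male-higher.

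The highest 4 genes of the female adult were all female-higher. The highest had 79296 RPKM in the female adult, 5.74% of the summed RPKM of the genes compared, and 7822 RPKM in the male adult, 0.608%. In the other libraries it ran from 20.9 RPKM in the female pupa to 3762 in L3. The third had 47679 RPKM in the female adult, against 3080 in the male adult. In the 8 other libraries it had between 4.76 RPKM (L1) and 178 RPKM (male pupa), far below both adults.

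The highest gene of the male adult had 24693 RPKM in the female adult, against 159568 RPKM in the male adult, 1.79% and 12.4% of the summed RPKM of the genes compared. It was between 5115 and 11985 RPKM in the 8 other libraries, and so was abundant in all 10. RR48_12386 was the fourth of the male adult and differed from it in being at or near 0 in 8 libraries. Chosen after its values were seen, these genes are given as values only.

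In 0 of 12 checks did 1 library lie far from the others. These checks overlap, as all took shares and levels of the female-higher and male-higher genes over the 5 larval or the 6 egg and larval libraries. The correlations by which L2 stood apart were not among them.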
